A study of Mus musculus with 12 samples.

Results

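Embryoid bodies (EBs) made from mouse embryonic stem cells (ESCs) that lack heterochromatin protein 1β (HP1β) were set against the same cells before differentiation. The comparison rests on 4 of the 12 arrays of the series, the 2 labelled EB HP1bKO and the 2 labelled ESC HP1bKO. It was made over 10379 genes, those with a signal above 45 (log2 5.49) on at least 1 of these 4 arrays, a level that the study's methods take as background. HP1bKO cells were Cbx1-/- and carry the line label R1. EBs and ESCs labelled HP1aKO (Cbx5-/-, line label R1) and WT (line label HM1, called a littermate control in the methods) gave the other 8 arrays, 2 per group, and were used where the change in HP1bKO was compared with that of another genotype. No group received a treatment. ESCs were grown on gelatin with mitomycin-C treated fibroblast feeders and sorted with magnetic beads for SSEA1, a surface sugar of undifferentiated cells. EBs were kept for 7 days in suspension without leukaemia inhibitory factor (LIF), the cytokine that holds ESCs undifferentiated, and no sort is described for them at harvest. The labels call the 2 arrays of a group biological replicates, but no source used here tells if they came from separate cultures, so p-values measure the spread between these arrays, which may be technical.

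HP1α, HP1β and HP1γ, encoded by Cbx5, Cbx1 and Cbx3, are chromodomain proteins that bind methylated histone tails and are known for their part in compact, silent heterochromatin. In EBs no lineage is imposed from outside. Cells shut down the pluripotency network, pass through states that resemble the epiblast and the primitive streak, and give rise to mixed mesodermal, endodermal and ectodermal derivatives, with blood and vessels among the earliest. An array of a whole culture reads the sum over such cells.

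The targeted gene was checked first. Cbx1 had a log2 signal of 7.73 and 7.67 in EB HP1bKO and of 7.59 and 7.99 in ESC HP1bKO, while the other 8 arrays lay between 9.36 and 10.05. The knockout arrays were thus below all others in both states, though not at background, and no source used here tells if its probes fall within the deletion. Cbx3 (11.23 and 11.10 in EBs, 11.37 and 11.32 in ESCs) did not pass the test, and Cbx5 was higher in the EBs (10.26 and 10.31, against 9.72 and 9.88 in ESCs, a log2 difference of 0.49 ± 0.14, limma SE, adjusted p = 0.0363). Among the arrays of the other genotypes, 2 libraries went against their labels: Cbx5 was 10 in the library labelled ESC HP1aKO 2, against 8.29 in the library labelled ESC WT 2, whereas the replicates numbered 1 had 8.04 in ESC HP1aKO and 9.66 in ESC WT. Most counts of list members that differ between genotypes are therefore given with and without these 2 libraries. Each called difference between genotypes printed below for a single gene was also called, with the same sign, without them. That fit leaves ESC WT and ESC HP1aKO with a single array each and calls more genes, so a kept call is a weak check.

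The EB replicates lay closer together than the ESC replicates. Over genes, the difference between replicates had an SD of 0.192 in EB HP1bKO and 0.394 in ESC HP1bKO, and 6 genes differed by more than 2-fold between the EB arrays, against 287 between the ESC arrays. Among the genes that split the ESC arrays were genes of fibroblasts and contractile cells. Thbs1, a matricellular protein, was 9.35 on the ESC array of replicate 1 and 6.44 on that of replicate 2, and Col1a2, a fibrillar collagen, was 7.71 and 5.89. Array medians over the genes tested lay between 7.21 and 7.42, and 92.8% and 92.6% of these genes were above the floor on the EB arrays, against 89.5% and 88.5% on the ESC arrays. The small number of arrays limits the precision of every value below.

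Differentiation without HP1β changed the level of 4148 of the 10379 genes (40.0%), at an adjusted p under 0.05 in limma with Benjamini-Hochberg adjustment. Of these, 2431 (23.4% of the genes tested) were higher in EBs and 1717 (16.5%) were lower. Among the called genes 311 rose and 137 fell by more than 4-fold, and 39 rose and 6 fell by more than 16-fold. The median difference was 0.93 among the genes that rose and -0.83 among those that fell, on a log2 scale, and 0.05 over all genes tested. The groups of arrays did not overlap for any of the 4148 called genes, which has to be read against 7789 non-overlapping genes (75.0%) overall. The balance of rises and falls depended on scaling: with each array centred on its median, which moved the median difference to -0.08, 2046 genes were higher and 2389 lower. The count leaned on the narrow EB spread, since 797 genes were called without EB HP1bKO replicate 1 and 946 without EB HP1bKO replicate 2. With a rule of 1.5-fold in every pair of arrays 2475 genes (23.8%) passed, and with 2.5-fold 513 were higher (4.94%) and 216 lower (2.08%). In cultures of mixed cells, fewer cells of a type and less RNA per cell cannot be told apart.

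The largest rises and falls spanned the range of the arrays. The 15 rises were led by embryonic globins and by genes of vessels and mesenchyme, and the 15 falls by genes of pluripotency, of neurites and of meiosis. A gene silent in one state entered the comparison through the other, and 1017 called genes had the mean of 1 group under the floor. For such genes the fold is given as a lower bound, with signals under the floor raised to it.

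**Figure D1:**
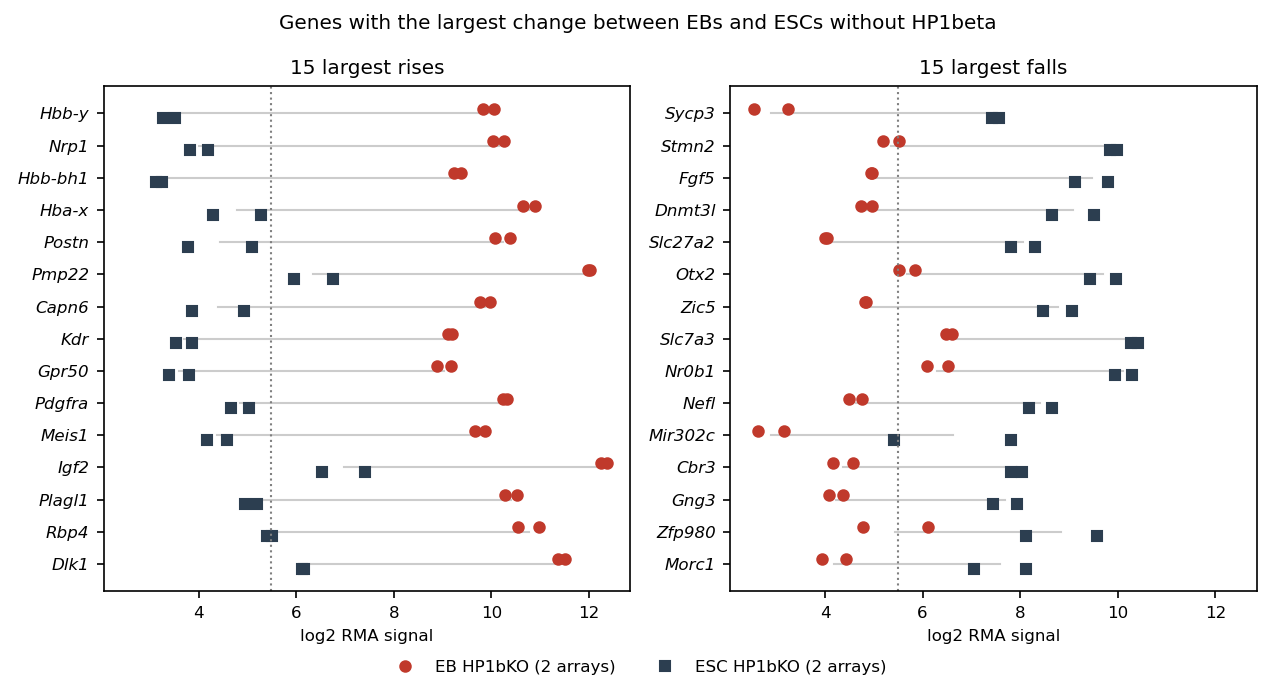
Log2 RMA signal of the 15 genes with the largest called rise (left panel) and the 15 with the largest called fall (right panel). Circles are the 2 EB HP1bKO arrays, squares the 2 ESC HP1bKO arrays, grey lines join the group means and the dotted line is the floor of 5.49. The groups of arrays are apart for all 30 genes, and Mir302c (7.81 and 5.42) and Zfp980 (8.11 and 9.57) are among those split between the ESC arrays.

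The pluripotency network fell in the EBs, with its leading members still well above the floor. All 14 genes of the core list were tested, 13 were lower in EB HP1bKO and none was higher, with a median difference of -2.30. Pou5f1, which encodes Oct4, was 8.81 and 8.51 in EBs, against 11.27 and 11.31 in ESCs (-2.63 ± 0.16, adjusted p = 0.000276, limma). Nanog, its partner factor, was 8.92 and 8.74 in EBs and 10.44 and 10.46 in ESCs, and Sox2, the third factor of the core, was 8.52 and 8.22 in EBs and 10.63 and 10.77 in ESCs. These 3 genes fell 6.19-fold, 3.08-fold and 5.03-fold, and each EB array remained more than 2 log2 units above the floor. The chromatin-bound factor Utf1 (7.38-fold) and the Nodal co-receptor Tdgf1 (10.3-fold) fell further. Dppa2, a DNA-binding protein of ESCs, was the exception of the list: it was 8.29 and 8.02 in EBs and 8.27 and 9.52 in ESCs, a difference of -0.74 that did not pass the test (adjusted p = 0.183).

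Genes of the naive state fell as well. Of 18 members on the array 16 were tested, 13 were lower in EBs and none was higher, with a median difference of -1.51. Nr0b1, an orphan receptor of the Oct4 network, was 6.51 and 6.09 in EBs and 9.94 and 10.28 in ESCs, a fall by 3.81 on the log2 scale. Esrrb, a nuclear receptor, fell by 2.80 and Klf4, a zinc finger factor, by 1.98. Dppa5a, an RNA-binding protein of ESCs, had 10.91 and 11.02 in EBs and 11.51 and 12.08 in ESCs, and its difference of -0.83 left it among the brightest members in both states. Tbx3, Stat3 and Tet2 did not pass the test. Fut9, the fucosyltransferase that builds the SSEA1 epitope, was called lower (-2.09, adjusted p = 0.00125), with both group means under the floor.

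The formative and primed genes that mark the epiblast were present in ESC HP1bKO and lower in the EBs for 6 of 10 members, against 1 that was higher. Fgf5, the growth factor that marks the epiblast, was 4.96 and 4.94 in EBs and 9.80 and 9.13 in ESCs, which makes it at least 15.7-fold lower. Otx2, a homeobox factor of the epiblast and anterior brain, was 5.84 and 5.51 in EBs and 9.43 and 9.96 in ESCs (-4.02 ± 0.22, adjusted p = 0.000224). The EB arrays of both genes were at or near background. Zic2 and Zic5, zinc finger factors of epiblast and neural plate, fell by 3.14 and 3.95, and the de novo DNA methyltransferase Dnmt3b fell by 3.32, with 7.61 and 7.44 in EBs and 10.90 and 10.80 in ESCs. Sox4, a factor of many progenitors, was the member that rose (1.00).

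Ligands and inhibitors of the Nodal pathway, which patterns the epiblast, fell with them. Of 8 members tested 6 were lower and 1 was higher, with Tdgf1 and Gdf3 counted in the core pluripotency list too. Nodal itself was 7.00 and 6.78 in EBs and 9.70 and 8.71 in ESCs, and its feedback inhibitor Lefty1 was 5.28 and 5.35 in EBs and 8.23 and 8.65 in ESCs, at least 7.70-fold lower. Tdgf1 and the ligand Gdf3 were lower too, the second at 6.27 and 6.21 in EBs and 8.22 and 8.77 in ESCs, and the pathway factor Foxh1 fell by 1.48. The type I receptor Acvr1b was the member that rose (0.83), and the type II receptor Acvr2b (-0.02) did not pass the test. In the FGF pathway 9 of 15 members tested were lower and 4 were higher. The ligands Fgf4, Fgf5, Fgf8, Fgf15 and Fgf17 with the feedback inhibitors Spry2 and Spry4 and the target factors Etv4 and Etv5 were the falls, and the receptors Fgfr1, Fgfr2 and Fgfr3 with the inhibitor Spred1 the rises.

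Primitive streak genes moved both ways. Of 16 members on the array 10 were tested. Eomes, Mixl1, Gsc and Lhx1, factors of the streak and its organiser, were lower in EBs, with Eomes at 5.11 and 5.01 in EBs and at 8.43 and 7.14 in ESCs. Foxf1 and Hand1, factors of lateral and extraembryonic mesoderm, Cdx2, a factor of the posterior body and trophoblast, and the receptor Pdgfra were higher. Mesp1, Mesp2, Tbx6 and Msgn1, which mark newly formed mesoderm, were under the floor on all 4 arrays.

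A cluster of microRNAs known from pluripotent cells was called lower in the EBs, with signal above the floor on the ESC array of replicate 1 alone. The array measures the precursor of each, not the mature molecule, and besides Mir302c the microRNAs were chosen after their values were seen. Mir302c was 2.62 and 3.16 in EB HP1bKO, against 7.81 and 5.42 in ESC HP1bKO (-3.73 ± 0.72, adjusted p = 0.0109). Mir302a was 2.64 and 2.90 in EBs and 7.23 and 4.70 in ESCs, and Mir302d was 3.37 and 3.14 in EBs and 7.33 and 5.18 in ESCs. Mir302b (-2.59) and Mir367 (-2.36) were called lower as well, with adjusted p = 0.0438 each. All 5 features of the cluster were under the floor on both EB arrays and on the ESC array of replicate 2. On the ESC array of replicate 1 all were above it. Mir302b had 6.3 and 3.62 on the ESC arrays and Mir367 had 5.87 and 3.45. For Mir302b and Mir367 both group means were thus under the floor. Mir302c lost its call without EB HP1bKO replicate 1 (adjusted p = 0.113) or replicate 2 (adjusted p = 0.0897). Mature 3p arms from RefSeq (GRCm38.p6, chromosome 3, plus strand) are shown because their shared seed sets their targets, with bases 2 to 8 in capitals.
miR-302b-3p (chr3:127545275-127545297): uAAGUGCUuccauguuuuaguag
miR-302d-3p (chr3:127545665-127545687): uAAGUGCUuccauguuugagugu
miR-302c-3p (chr3:127545406-127545427): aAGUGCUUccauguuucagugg
miR-367-3p (chr3:127545779-127545800): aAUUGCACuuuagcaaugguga

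The 3p arms of miR-302b and miR-302d share the seed AAGUGCU. miR-302c-3p in this table starts 1 base later, so that the same 7 letters begin at its base 1, while miR-367-3p has a seed of its own. The cluster on chromosome 14 that holds Mir17 ran the other way between the ESC replicates. Mir17 was 3.81 and 3.87 in EBs and 4.88 and 6.22 in ESCs, and Mir20a was 4.94 and 5.19 in EBs and 6.02 and 7.66 in ESCs. Of 5 features of this cluster 4 were called lower (Mir17, Mir18, Mir19a and Mir20a, with differences between -1.88 and -1.71), and Mir19b-1 (-1.38, adjusted p = 0.0899) was not. The 5p arms of miR-17 and miR-20a, shown for comparison on the plus strand, hold the letters AAGUGCU from their base 3.
miR-17-5p (chr14:115043684-115043706): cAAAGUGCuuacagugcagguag
miR-20a-5p (chr14:115044183-115044205): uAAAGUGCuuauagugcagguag

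**Figure D2:**
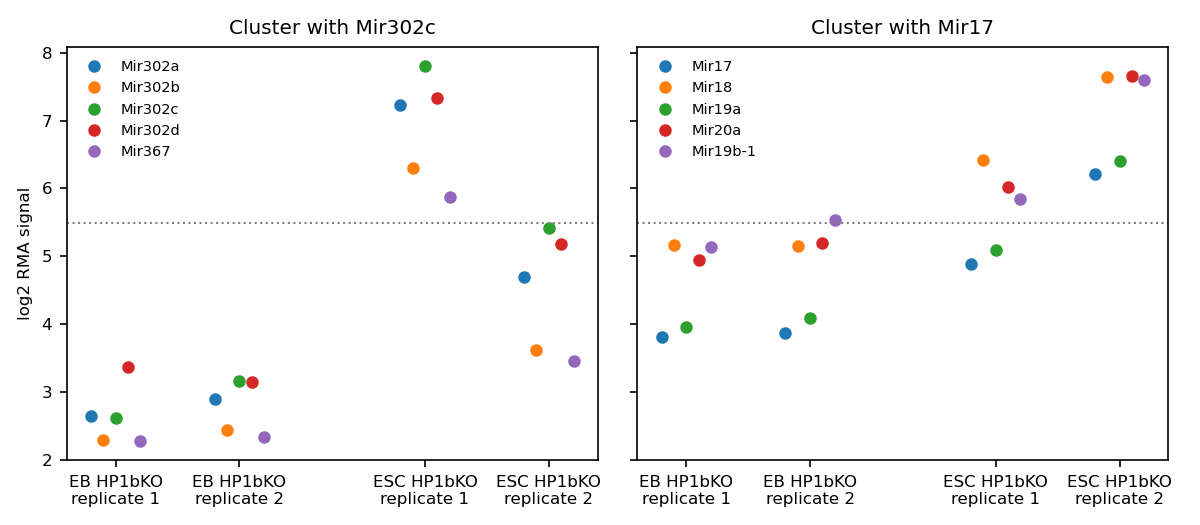
Log2 RMA signal of microRNA precursor features on the 2 EB HP1bKO and the 2 ESC HP1bKO arrays, with 1 colour per feature and the floor as a dotted line. In the cluster with Mir302c (left panel) the ESC array of replicate 1 is the higher one, with Mir302a at 7.23 against 4.70, and in the cluster with Mir17 (right panel) that of replicate 2, with Mir20a at 6.02 against 7.66.

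Neuronal genes were another group that was lower in the EBs. Of 15 members on the array 8 were tested, 7 fell and none rose, with a median difference of -1.97. Stmn2, a microtubule regulator of growing axons, was 5.52 and 5.18 in EBs and 9.84 and 9.98 in ESCs, at least 21.4-fold lower. Nefl, a neurofilament subunit, was 4.76 and 4.49 in EBs and 8.64 and 8.17 in ESCs. The intermediate filament gene Ina fell by 2.75, Nefm by 2.02 and the tubulin gene Tubb3 by 1.92. Genes of mature neurons (Map2, Dcx, Rbfox3 and Snap25) were under the floor on all 4 arrays. In the neural progenitor list 5 of 13 members were tested. Nes, an intermediate filament of neural stem cells and other progenitors, was lower (-1.89) and Sox11, a factor of neural and other progenitors, was higher (1.31). The early neural factor Sox1 (-0.26) did not pass the test, and Pax6, Zic1, Olig2 and Neurog2 were under the floor in both states.

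Genes of the germ line that ESCs express fell too. Sycp3, a protein of the meiotic chromosome axis, was 3.25 and 2.55 in EBs and 7.56 and 7.43 in ESCs, at least 4.01-fold lower. Dnmt3l, the cofactor of de novo methylation in germ cells, was 4.96 and 4.74 in EBs and 8.64 and 9.51 in ESCs. Of 13 members of the germline list 3 were tested (Sycp3, Tex19.1 and Ddx4), and all 3 were lower.

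On the rising side, primitive blood gave the largest differences. Hbb-y, an embryonic β-like globin, was 10.06 and 9.83 in EBs and 3.27 and 3.51 in ESCs (6.56 ± 0.16, adjusted p = 6.52e-05), at least 22.0-fold higher. Hba-x, the embryonic α-like globin, was 10.89 and 10.65 in EBs and 4.30 and 5.29 in ESCs, at least 38.9-fold higher, and Hbb-bh1, another embryonic β-like globin, was 9.38 and 9.23 in EBs and 3.12 and 3.26 in ESCs. All 3 globins were bright in the EBs and under the floor in the ESCs. Of 9 erythroid genes tested of 13, 8 rose and none fell, among them Alas2, the erythroid enzyme of haem synthesis (1.96), and the anion exchanger Slc4a1 (1.98). Factors of the lineage were dim: Klf1 reached 5.54 and 5.73 in the EBs, and Gata1 and Tal1 stayed under the floor. Of 9 macrophage genes 8, with Csf1r, Ptprc, Adgre1 and Spi1 among them, were under the floor on all 4 arrays, and the remaining one, the lysosomal protein Cd68, was lower in EBs (-1.66).

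The promoters of 2 of these globins are printed because the genes moved together from silence to high signal. RefSeq windows of 250 bases before to 50 after the start (GRCm38.p6) were searched on both strands for TATAAA, shown in capitals, and for AGATAA, a letter string that GATA factors bind. Hba-x held TATAAA 28 bases before its start. Hbb-y held no TATAAA in this window and neither held AGATAA, and Hbb-bh1 was not in the table. AGATAA is not the only string that GATA factors bind. Others were not searched, so its absence does not show that GATA sites are lacking.
Hbb-y promoter (chr7:103853158-103853457, minus strand): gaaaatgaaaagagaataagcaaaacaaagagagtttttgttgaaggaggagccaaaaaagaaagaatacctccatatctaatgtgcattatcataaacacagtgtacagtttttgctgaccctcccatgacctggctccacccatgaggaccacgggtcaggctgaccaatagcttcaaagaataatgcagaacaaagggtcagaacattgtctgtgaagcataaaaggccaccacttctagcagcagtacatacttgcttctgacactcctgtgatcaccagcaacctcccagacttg
Hba-x promoter (chr11:32276350-32276649, plus strand): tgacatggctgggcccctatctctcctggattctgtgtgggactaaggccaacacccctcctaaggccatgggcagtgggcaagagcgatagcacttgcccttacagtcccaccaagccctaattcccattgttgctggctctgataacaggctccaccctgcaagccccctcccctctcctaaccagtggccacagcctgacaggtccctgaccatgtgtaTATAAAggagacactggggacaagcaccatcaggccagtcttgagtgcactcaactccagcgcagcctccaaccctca

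Promoters of the genes that changed most were poorer in CpG. A ratio of observed over expected CpG above 0.6 was found in 48.2% of the 224 promoters of genes that rose over 4-fold and in 39.8% of the 88 of genes that fell over 4-fold, against 77.5% of the 8373 promoters of all genes tested and 36.4% of all 27025 in the table. TATAAA was in 12.5% of the promoters of genes that rose over 4-fold, in 6.8% of those that fell over 4-fold and in 6.5% of those of all genes tested. AGATAA was in 8.9%, 4.5% and 5.4% of the same sets. These shares describe letters in a window and carry no test.

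Vessel genes rose together with blood. Of 16 endothelial genes tested of 19, 13 were higher in EBs and none was lower, with a median difference of 2.10. Kdr, the receptor of VEGF on vessel and blood precursors, was 9.20 and 9.12 in EBs and 3.54 and 3.87 in ESCs, at least 12.7-fold higher. Cdh5, the cadherin of endothelial junctions, was 7.53 and 7.18 in EBs and 4.08 and 3.88 in ESCs. Nrp1, a co-receptor of VEGF that mesenchyme expresses too, was 10.26 and 10.04 in EBs and 3.83 and 4.19 in ESCs, at least 25.2-fold higher. Flt1, Pecam1 and Eng, which ESC HP1bKO already expressed, did not pass the test (-0.11, 0.80 and 0.37). Smooth muscle was uneven: Acta2 rose 16.2-fold (11.79 and 11.73 in EBs, 8.34 and 7.14 in ESCs), whereas Tagln (-0.10), Myl9 (0.38) and Tpm2 (0.10) did not pass the test, Cnn1 was lower (-1.76) and Myh11 was under the floor.

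Extraembryonic endoderm was seen in the secreted proteins of the visceral endoderm. All 7 members tested, of 16 on the array, were higher in EBs, but 6 of the 7 were under the floor on both ESC arrays and could enter only through the EBs. The same held for 7 of 9 erythroid, 9 of 16 endothelial, 7 of 11 cardiac factor and 8 of 11 limb and allantois genes tested. It also held for 6 of 12 cardiac sarcomere, 6 of 15 feeder marker, 5 of 17 Wnt and 4 of 12 BMP genes. Of the genes of the transition from epithelium to mesenchyme it held for 3 of 9, of trophoblast genes for 3 of 9 and of imprinted genes for 4 of 20. The counts of all these lists follow in part from the filter. Ttr, a thyroid hormone carrier, was 9.84 and 9.19 in EBs and 4.14 and 4.35 in ESCs, at least 16.3-fold higher, and Rbp4, the retinol carrier, was 10.98 and 10.55 in EBs and 5.41 and 5.51 in ESCs, at least 38.7-fold higher. Afp rose by 2.63, Apoa1 by 2.59 and Apob by 2.88. Albumin, fibrinogen γ and Apoa4 remained under the floor. Among endoderm factors Gata6 was 10.52 and 10.33 in EBs and 6.07 and 6.36 in ESCs, an 18.5-fold rise, and Gata4 rose 5.40-fold, while Sox17 (0.18) and Foxa2 (-0.18) did not pass the test and Cer1, an inhibitor secreted by anterior endoderm, fell by 2.97.

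Imprinted genes, many of which control fetal growth, were among the brightest transcripts of the EBs. Of 20 tested 16 were higher and 2 were lower, with a median difference of 2.40. Igf2, the fetal growth factor, was 12.36 and 12.25 in EBs and 7.42 and 6.54 in ESCs, a 40.1-fold rise. Dlk1, a Notch ligand homologue of progenitors, was 11.50 and 11.37 in EBs and 6.17 and 6.13 in ESCs, a 38.9-fold rise. Plagl1, a zinc finger factor of the imprinted network, was 10.52 and 10.28 in EBs and 4.96 and 5.20 in ESCs. Peg3, Mest, Igf2r and the cell cycle inhibitor Cdkn1c rose 9.31-, 7.20-, 5.91- and 7.92-fold. The 2 falls were Grb10, an adaptor that restrains growth factor receptors (5.69 and 5.35 in EBs, 7.27 and 7.52 in ESCs), and Zdbf2 (-0.44).

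Mesenchymal genes were higher and epithelial genes lower in the EBs. All 9 genes of the transition from epithelium to mesenchyme were higher in EBs, with Cdh2 at 9.57 and 9.46 in EBs and 7.27 and 7.04 in ESCs and the repressor Snai2 at 8.25 and 7.96 in EBs and 3.79 and 3.95 in ESCs. Of 11 genes of epithelial junctions 7 were lower and none was higher. E-cadherin (Cdh1) was 8.28 and 8.13 in EBs and 10.63 and 10.44 in ESCs, a 5.03-fold fall, and the splicing regulator Esrp1 fell by 2.38. Collagens and other stromal genes rose: Col3a1 was 10.61 and 10.43 in EBs and 5.72 and 5.55 in ESCs, Postn, a matrix protein of mesenchyme, was at least 26.8-fold higher, and Pdgfra was 10.33 and 10.23 in EBs and 5.03 and 4.66 in ESCs. Pmp22, a membrane protein of Schwann cells and growth-arrested fibroblasts, was 11.99 and 12.02 in EBs and 6.75 and 5.95 in ESCs, a 50.3-fold rise.

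Since ESCs were grown on fibroblasts, markers of feeders were read as a list. Of 19 members on the array 15 were tested, 12 were higher in EBs and 1, Thy1, was lower (-1.27). The median signal of the 19 was 7.71 and 7.85 on the EB arrays and 5.24 and 4.90 on the ESC arrays, while the median of all genes tested was 7.42 and 7.32 on the EB arrays and 7.27 and 7.21 on the ESC arrays. S100a4 and Mgp were under the floor on all 4 arrays. Embryonic mesenchyme expresses many of the same genes, and 3 of them stand in another list too (Prrx1, Twist1 and Dcn). The part of carried-over feeders in the rises of mesenchymal genes was not tested.

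Among heart genes, those of transcription factors were read apart from those of muscle proteins. Of 11 cardiac factors tested of 14, 9 were higher in EBs. Tbx20 was 8.48 and 8.23 in EBs and 3.81 and 3.68 in ESCs, at least 7.29-fold higher, and Isl1, a factor of the second heart field, was 8.25 and 8.08 in EBs and 4.46 and 4.90 in ESCs. Hand2, Mef2c and Gata5 rose as well, by 2.38, 2.48 and 1.49, and the ubiquitous factor Srf was lower (-0.88). Nkx2-5 was 6.12 and 6.41 in EBs and 5.96 and 6.22 in ESCs and did not pass the test (0.17). Tbx5 and Myocd were under the floor on all 4 arrays.

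Of 26 genes of the cardiac sarcomere and of calcium handling 12 were above the floor, 6 rose and none fell. Of these 12, 6 were under the floor on both ESC arrays and could enter only through the EBs. Tnnt2, cardiac troponin T, was 7.26 and 7.01 in EBs and 5.08 and 5.23 in ESCs, at least 3.12-fold higher. Myl7, the atrial light chain, was 6.82 and 6.03 in EBs and 5.00 and 5.46 in ESCs (1.20 ± 0.30, adjusted p = 0.0235). Myh6, the α myosin heavy chain, was 5.55 and 5.13 in EBs and 5.58 and 5.71 in ESCs (adjusted p = 0.241), and Actc1, cardiac actin, was 8.91 and 8.06 in EBs and 8.45 and 6.92 in ESCs (adjusted p = 0.269). The EB and ESC arrays of Actc1 overlapped, and Myh6 was near the floor on all 4. Myh7, Myl2, Myl3, Ttn, Ryr2 and Smyd1 were under the floor in both states.

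Factors that set position along the body were higher where they could be measured. The array measures 37 Hox genes, of which 10 were above the floor and all 10 were higher in EBs, 7 of them from the groups numbered 9 to 13, with EB signals between 5.09 and 6.59. All 10 were under the floor on both ESC arrays and could enter only through EBs, so this count follows from the filter. Hoxa9 was 6.59 and 6.56 in EBs and 4.22 and 4.46 in ESCs, Hoxd10 was 6.51 and 6.48 in EBs and 3.72 and 4.20 in ESCs, and the most posterior members tested, Hoxa13 (5.62 and 5.17 in EBs, 3.40 and 3.76 in ESCs) and Hoxd13 (5.93 and 5.85 in EBs, 3.70 and 3.35 in ESCs), rose too. All of these EB signals were dim. Genes of limb bud and allantois were brighter, and 8 of 11 rose. Tbx4, a T-box gene of the hindlimb bud and the allantois, was 8.79 and 8.25 in EBs and 4.36 and 4.39 in ESCs, at least 8.14-fold higher. Pitx1, a hindlimb factor, was 8.93 and 8.97 in EBs and 4.86 and 4.73 in ESCs, and Meis1 and Meis2, cofactors of Hox proteins, were at least 19.3-fold and 13.4-fold higher.

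Genes of the BMP, Wnt and retinoic acid pathways were more often higher than lower in the EBs. Among all genes tested 23.4% were higher and 16.5% lower. In the BMP pathway 8 of 12 members tested were higher and 1 was lower. The ligand Bmp4 was 8.80 and 8.56 in EBs and 6.62 and 6.76 in ESCs, Bmp5 rose by 3.05 and the inhibitory Smad6 by 3.03, and the antagonist Chrd was the fall (-0.58). In the Wnt pathway 9 of 17 rose and 2 fell. The rises were ligands (Wnt2, at least 7.54-fold higher, and Wnt5a, at least 5.71-fold), receptors (Fzd2 and Fzd4), extracellular modulators (Dkk1, Dkk2, Sfrp1 and Rspo3) and the inhibitor Nkd1. Sp5 and Notum, known as targets of the pathway, were the falls, and the target Axin2 (-0.06) did not pass the test. In the retinoic acid pathway 4 of 8 rose and 2 fell. Aldh1a2, the enzyme that makes retinoic acid in the embryo, was 8.45 and 8.30 in EBs and 4.50 and 4.47 in ESCs, at least 7.37-fold higher, and the receptor and target Rarb was at least 5.99-fold higher, whereas Cyp26a1, which degrades retinoic acid, was lower (-0.92).

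Chromatin genes moved both ways. Of 22 genes of DNA methylation and heterochromatin 8 were lower and 2 were higher, against 16.5% and 23.4% of all genes. Dnmt3l (-4.23) and Dnmt3b had the most negative differences of the list. The falls beyond the de novo methyltransferases were small to moderate, from -0.55 for Suv39h2, a methyltransferase of heterochromatic histones, to -1.84 for Tet1, which oxidises methylcytosine, and Tet3 (1.15) and Mbd1 (0.70) were the rises. Dnmt1, Uhrf1, Setdb1 and Atrx did not pass the test, all with differences between -0.19 and 0.05. Polycomb genes were split, with 7 higher and 7 lower of 20, and the subunit Cbx7 of ESCs fell by 1.58 while Cbx2, Cbx8 and Bmi1 rose by 1.06, 1.29 and 1.47. Of 22 cell cycle genes 5 were lower and 1 higher, the proliferation antigen Mki67 had 8.85 and 8.80 in EBs and 8.78 and 8.87 in ESCs, and Ccnd2 was the rise (2.01). Of 13 genes of glycolysis and of the response to hypoxia 3 were lower and 1, Vegfa, was higher (1.02). None of 6 common control genes was called, and 0 of 4 genes of the two-cell-like state exceeded the floor.

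Among the remaining lists, 4 of 9 trophoblast genes rose (Gata3, Gata2, Cdx2 and Hand1) and 1 fell. The defining factor Elf5 and the trophoblast gene Tpbpa were under the floor. Of 10 basement membrane genes 4 rose and 2 fell, with the collagens Col4a1 and Col4a2 up by 2.21 and 2.19 and the laminin chain Lama5 at -1.90. Of 7 interferon-related genes tested 1 rose and 3 fell, of 7 p53 targets none rose and 2 fell, and of 3 cyclin-dependent kinase inhibitors 2 rose. Among the largest changes outside the lists were Capn6, a calpain-family protein (at least 20.7-fold higher), and Gpr50, an orphan receptor related to melatonin receptors (at least 11.6-fold higher). Falls outside the lists included the fatty acid transporter Slc27a2, the cationic amino acid transporter Slc7a3 (-3.81), the carbonyl reductase Cbr3, the G protein subunit Gng3, the zinc finger gene Zfp980 and Morc1, a germ-line silencing factor.

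**Figure D3:**
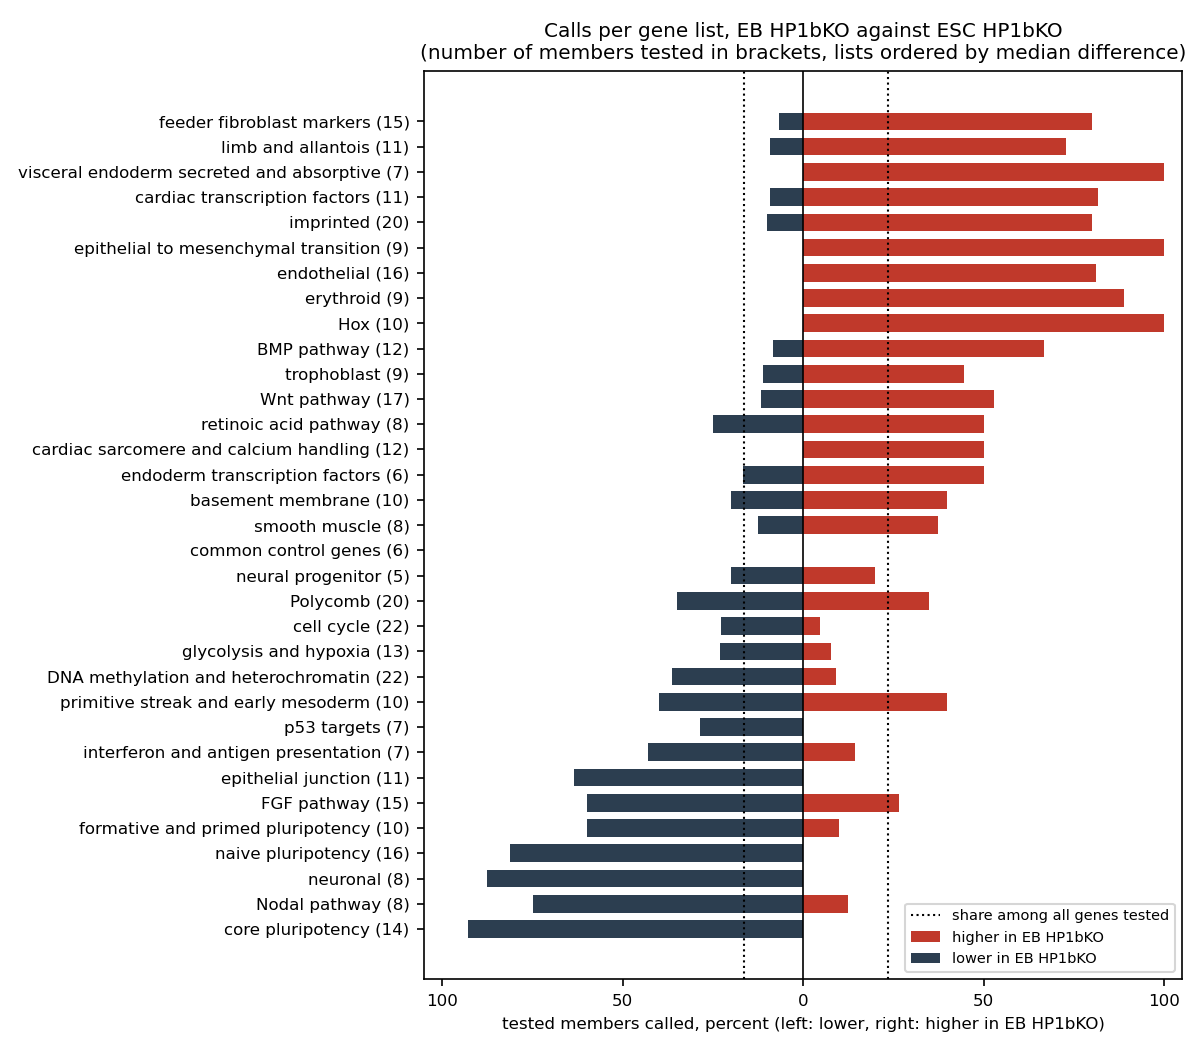
Share of the tested members of each list called higher (right, red) or lower (left, dark) in EB HP1bKO against ESC HP1bKO, for lists with at least 5 members tested, ordered by the median log2 difference. Dotted lines mark the shares among all 10379 genes, 23.4% higher and 16.5% lower. Lists of mesenchyme, visceral endoderm, vessels and imprinted genes lie at one end, and core pluripotency, with 13 of 14 members lower, at the other.

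Whether these changes differed from those of cells with HP1β was tested next, as the change from ESC to EB in HP1bKO minus that in WT or in HP1aKO, in a fit on all 12 arrays and 10880 genes. Most changes ran in the same direction in all genotypes: of the 4148 genes called in HP1bKO, 3950 had a change of the same sign in WT and 3987 in HP1aKO. The change itself differed from WT for 141 genes, 67 more positive in HP1bKO (0.616%) and 74 more negative (0.680%). It differed from HP1aKO for 215 genes, 68 more positive (0.625%) and 147 more negative (1.35%). Without the 2 libraries that went against their labels these counts were 628 (3.02% more positive and 2.75% more negative) and 588 (2.29% and 3.12%), and they held 141 of the 141 and 212 of the 215 genes. Both tests share the 4 HP1bKO arrays, so they are not independent of each other. HP1bKO and WT differ in line label, and HP1bKO and HP1aKO carry the same one. Hprt, a purine salvage enzyme that serves to select ESC clones, nevertheless split the EB groups that share a label. It was 3.83 and 4.12 in EB HP1bKO and 4.66 and 4.56 in ESC HP1bKO, while EB HP1aKO had 6.28 and 6.84 and ESC HP1aKO 8.40 and 4.25. EB WT had 4.22 and 4.40, near EB HP1bKO, and ESC WT 6.48 and 8.84. The ESC HP1aKO library with 4.25 and the ESC WT library with 8.84 are the 2 that went against their labels by Cbx5. The effect of HP1β and that of the line or clone cannot be told apart in either comparison.

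Heart muscle genes had a smaller change without HP1β. Of 23 members of the sarcomere list tested on the 12 arrays, 12 had a more negative change in HP1bKO than in WT and 18 a more negative change than in HP1aKO, and none a more positive one. The median change of the list was 0.38 in HP1bKO, 3.46 in HP1aKO and 2.14 in WT, but 11 of the 23 passed the floor through arrays of the other genotypes alone. With no floor, over all 26 members, 12 and 19 were called and the median difference of changes was -1.18 against WT and -2.51 against HP1aKO. Without the 2 doubted libraries 16 and 18 members were called. Leaving out single arrays left between 8 and 12 members against WT and between 14 and 17 against HP1aKO.

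Myl7 was 6.82 and 6.03 in EB HP1bKO and 5.00 and 5.46 in ESC HP1bKO, against 11.27 and 11.31 in EB HP1aKO and 5.11 and 5.31 in ESC HP1aKO, while EB WT had 10.46 and 10.32 and ESC WT 4.57 and 5.49. The difference of changes was -4.88 against HP1aKO (adjusted p = 0.000718) and -4.17 against WT (adjusted p = 0.00331). Smyd1, a methyltransferase needed for heart muscle, was 4.57 and 4.51 in EB HP1bKO, against 8.07 and 8.04 in EB HP1aKO and 7.67 and 7.79 in EB WT, and lay between 3.80 and 4.09 on all 6 ESC arrays. Its difference was -3.69 against HP1aKO (adjusted p = 7.78e-06) and -3.44 against WT (adjusted p = 2.93e-05). Myh7, the β myosin heavy chain, was 5.05 and 4.76 in EB HP1bKO, against 8.92 and 8.92 in EB HP1aKO and 7.74 and 7.97 in EB WT, and Myh6 was 5.55 and 5.13 in EB HP1bKO, against 9.84 and 9.95 in EB HP1aKO and 7.93 and 7.67 in EB WT. The EB HP1bKO arrays of these 4 genes lay below those of all other EBs, with a gap of more than 2 log2 units each. Actc1 was 8.91 and 8.06 in EB HP1bKO, against 12.38 and 12.35 in EB HP1aKO and 11.61 and 11.46 in EB WT, but here ESC HP1bKO (8.45 and 6.92) was the highest of the ESC groups, and the difference from WT of -4.65 (adjusted p = 0.0347) was called under 8 of 15 other settings.

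Among the factors upstream, Mef2c rose less in HP1bKO, with a difference of changes of -1.44 against HP1aKO (adjusted p = 0.00915) and of -1.33 against WT (adjusted p = 0.0195), and Myocd, a coactivator of muscle genes, was 4.33 and 4.42 in EB HP1bKO with a difference of -2.13 against WT (adjusted p = 0.0131). Of 12 cardiac factors tested on the 12 arrays, 2 had a more negative change and 1, Tbx2, a more positive one, against each genotype. For Gata4, Tbx20, Isl1, Hand2 and Nkx2-5 neither difference passed the test. These differences lay between -0.61 (Nkx2-5 against HP1aKO, adjusted p = 0.431) and 0.70 (Tbx20 against HP1aKO, adjusted p = 0.143). In the BMP list 3 of 13 members had a more negative change than in WT and 1 than in HP1aKO, and none a more positive one. The ligands Bmp2 (-2.08 against WT, adjusted p = 0.00409) and Bmp5 (-2.39, adjusted p = 0.00947) and the target Msx2 (-1.94, adjusted p = 0.0178) rose less than in WT. The ligand Bmp4 did not pass the test (0.19 against WT, adjusted p = 0.896). Cfc1, a Nodal co-receptor, was 4.47 and 4.55 in EB HP1bKO, against 7.90 and 8.08 in EB WT (difference of changes -4.42, adjusted p = 0.000128). Of 9 Nodal pathway genes 2 had a more negative and 1 a more positive change than in WT. Against HP1aKO 1 was more negative and 2 more positive. Gdf3 was more positive against both (1.94 against WT, adjusted p = 0.0274, and 2.72 against HP1aKO, adjusted p = 0.00344). Car4, a membrane carbonic anhydrase, was 7.59 and 7.13 in EB HP1bKO and 8.82 and 8.45 in ESC HP1bKO, while EB WT had 10.33 and 10.50 and ESC WT 7.34 and 6.75, so that it fell without HP1β (adjusted p = 0.0072) and its change differed from WT by -4.64 (adjusted p = 0.0131).

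**Figure D4:**
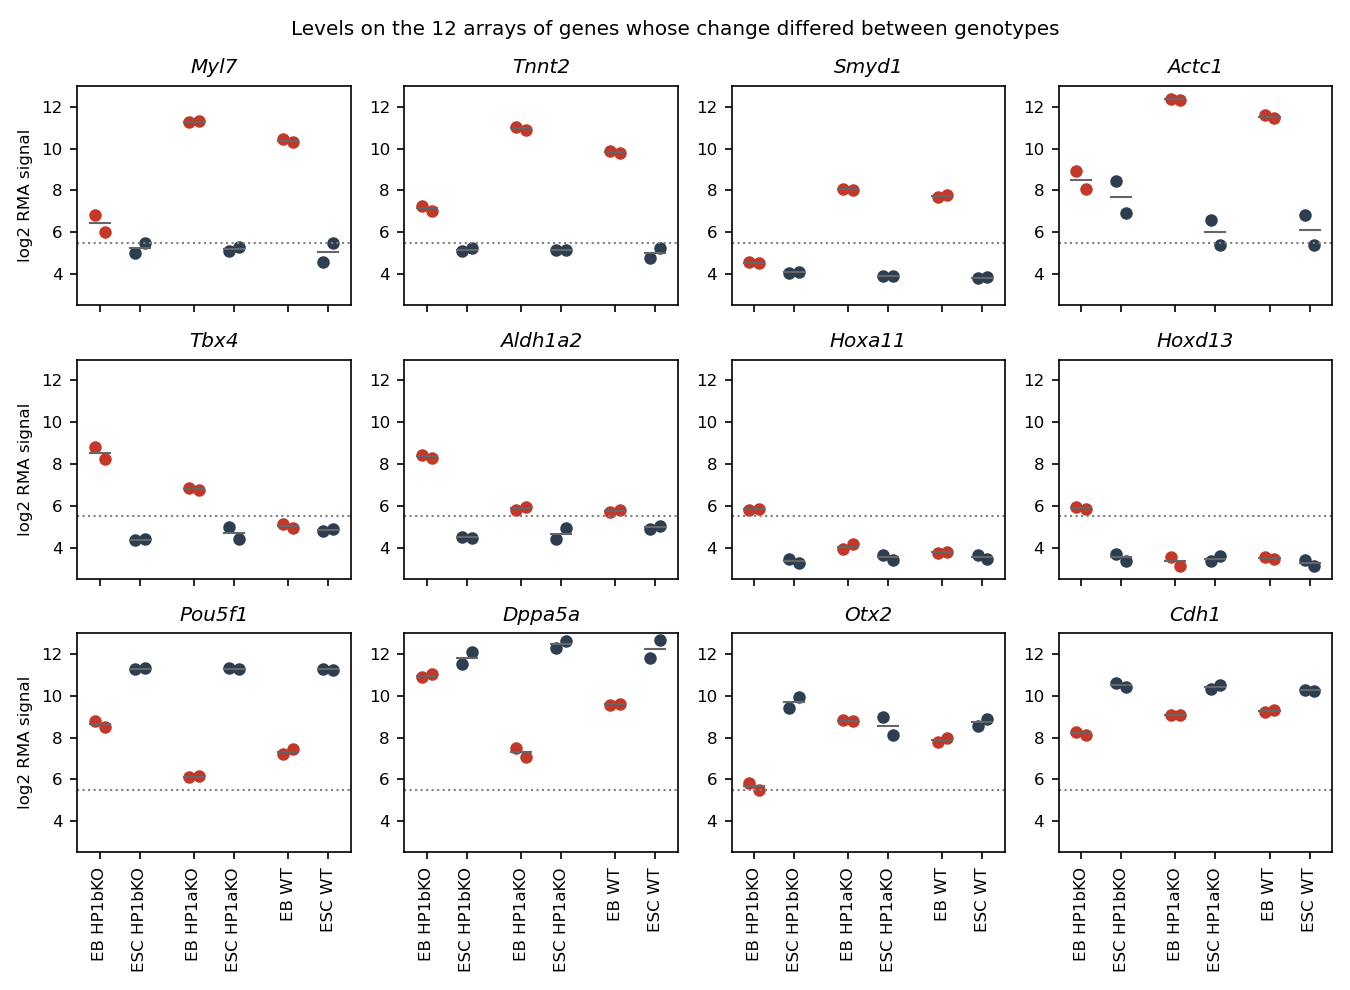
Log2 RMA signal of 12 genes on all 12 arrays, by group, with HP1bKO left, HP1aKO in the middle and WT right, EBs (red) before ESCs (dark), group means as grey bars and the floor as a dotted line. The top row holds heart muscle genes, low in EB HP1bKO (4.57 and 4.51 for Smyd1, where EB WT had 7.67 and 7.79). The middle row holds positional genes and Aldh1a2, high in EB HP1bKO (8.79 and 8.25 for Tbx4, where EB WT had 5.11 and 4.94), and the bottom row genes of pluripotency, epiblast and epithelium.

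Some positional genes and single genes outside the lists showed larger rises without HP1β. Tbx4 was 8.79 and 8.25 in EB HP1bKO, against 6.85 and 6.74 in EB HP1aKO and 5.11 and 4.94 in EB WT, and under the floor on all 6 ESC arrays. Its change differed by 2.03 from HP1aKO (adjusted p = 0.00913) and by 3.96 from WT (adjusted p = 0.000504). Aldh1a2 was 8.45 and 8.30 in EB HP1bKO, against 5.82 and 5.95 in EB HP1aKO and 5.68 and 5.82 in EB WT, a difference of changes of 2.67 (adjusted p = 0.000668) and 3.10 (adjusted p = 0.000522). Angptl7, a secreted factor, was above the floor in EB HP1bKO alone, at 6.85 and 6.87. Pcolce, an enhancer of collagen processing, was 10.19 and 10.10 in EB HP1bKO and 8.01 and 8.47 in ESC HP1bKO, while EB WT had 7.66 and 7.85 and ESC WT 8.79 and 9.46 (difference of changes 3.27, adjusted p = 0.00333). S1pr3, a sphingosine phosphate receptor, was 8.23 and 8.22 in EB HP1bKO, against 5.60 and 5.57 in EB WT. Pitx1 and Tbx2 were the further limb genes with a larger rise than in either genotype, by 1.92 and 1.39 against WT. Of 11 limb and allantois genes 3 were called against each genotype, and without the 2 doubted libraries 4 against HP1aKO and 5 against WT.

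Among Hox genes 5 of 12 tested had a more positive change than in WT (Hoxa9, Hoxa11, Hoxa13, Hoxd10 and Hoxd13) and 4 than in HP1aKO, and none a more negative one. Without the 2 doubted libraries 8 and 7 were called. Of these 12 genes 9 passed the floor in EB HP1bKO alone, so that the filter favours this direction. Hoxa11 was 5.82 and 5.86 in EB HP1bKO, against 3.93 and 4.15 in EB HP1aKO and 3.76 and 3.77 in EB WT, and Hoxd13 was 5.93 and 5.85 in EB HP1bKO, against 3.57 and 3.11 in EB HP1aKO and 3.53 and 3.47 in EB WT. For both genes all 10 other arrays were under the floor. With no floor 7 of 37 Hox genes had a more positive change than in WT and 5 than in HP1aKO, with a median difference of changes of 0.42 and 0.37. With a floor of 100 in place of 45 only 1 Hox gene was tested and none was called. Of the 17 feeder fibroblast markers tested on 12 arrays, 1 (Tgfbi) had a larger rise than in WT, and none than in HP1aKO. The median difference of changes of this list from WT was 1.25, and 2.05 without the 2 doubted libraries. Leaving out ESC WT replicate 1 instead gave 0.43. Against HP1aKO it was 0.39, and 0.74 without the doubted libraries. Its median signal on the EB arrays was 7.71 and 7.85 in HP1bKO, 7.21 and 7.26 in HP1aKO and 6.52 and 6.61 in WT. On the ESC arrays it was 5.24 and 4.9 in HP1bKO, 5.94 and 5.02 in HP1aKO and 6.48 and 5 in WT. The part of feeder cells in the differences was not tested.

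Core pluripotency genes fell less than in HP1aKO in part of the list. Against HP1aKO 7 of 14 core genes had a more positive change and 2 a more negative one, and against WT 2 and 1. Without the 2 doubted libraries these were 7 and 2 against HP1aKO and 4 and 1 against WT, with the median difference of changes from WT at 0.54 in place of 0.95. In the naive list 3 of 18 members (Dppa5a, Fbxo15 and Nr0b1) had a more positive change than in HP1aKO and none than in WT, and 6 and 2 without those libraries. The median change of the core list was -2.30 in HP1bKO, -4.77 in HP1aKO and -3.36 in WT. Pou5f1 was 8.81 and 8.51 in EB HP1bKO, against 6.11 and 6.15 in EB HP1aKO and 7.19 and 7.46 in EB WT, with ESC arrays between 11.24 and 11.35 in all genotypes. Its change differed by 2.55 from HP1aKO (adjusted p = 0.000334) and by 1.32 from WT (adjusted p = 0.016). Dppa5a was 10.91 and 11.02 in EB HP1bKO, against 7.48 and 7.09 in EB HP1aKO (difference of changes 4.35, adjusted p = 0.000668) and 9.56 and 9.62 in EB WT (1.82, adjusted p = 0.072, and 1.40 without the doubted libraries). Dppa2 was 8.29 and 8.02 in EB HP1bKO, against 4.87 and 4.56 in EB HP1aKO, and the noncoding RNA Lncenc1, Fbxo15 and Zfp42 differed from HP1aKO by 3.52, 3.15 and 2.83. The 2 core genes with a more negative change than in HP1aKO were Sox2 (-1.34, adjusted p = 0.0443) and Lin28a (-1.33, adjusted p = 0.0133). The core counts moved when single arrays were left out, from 0 to 6 more positive genes against WT and from 4 to 8 against HP1aKO.

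Single genes of epiblast, neural plate and epithelium ran the other way. In the formative and primed list Otx2 was the 1 of 10 members with a more negative change than in either genotype (3 against each without the doubted libraries), and Fgf5 (adjusted p = 0.395 against HP1aKO and 0.435 against WT) and Dnmt3b (0.646 and 0.394) did not pass. Otx2 was 5.84 and 5.51 in EB HP1bKO, against 8.84 and 8.79 in EB HP1aKO and 7.78 and 7.97 in EB WT, and its change differed by -4.29 from HP1aKO (adjusted p = 0.000668) and by -3.17 from WT (adjusted p = 0.00529). Cdh1 was 8.28 and 8.13 in EB HP1bKO, against 9.08 and 9.09 in EB HP1aKO and 9.22 and 9.32 in EB WT, and its change was more negative than in HP1aKO (adjusted p = 0.0237) and than in WT (-1.33, adjusted p = 0.00846). Cdh1 and Esrp1 were the 2 of 11 epithelial genes called against each genotype, and without the doubted libraries 2 were called against HP1aKO and 4 against WT. In the neural progenitor list 4 of 10 members had a more negative change than in HP1aKO and 2, Pax3 and Zic1, than in WT (5 and 3 without the doubted libraries). The 4 became 1 with an intensity trend, 2 with each array centred on its median and 1 to 4 with single arrays left out (1 in 6 of 8 cases), and 5 of the 10 members passed the floor through the other genotypes alone. Grb10 was 5.69 and 5.35 in EB HP1bKO and 7.27 and 7.52 in ESC HP1bKO, against 11.52 and 11.53 in EB HP1aKO and 9.72 and 8.59 in ESC HP1aKO. Its change differed from HP1aKO by -4.24 (adjusted p = 0.0022), and its level in ESC HP1bKO was already below that of the other ESCs. Visceral endoderm genes differed from HP1aKO in the positive direction for 3 of 9 members (Apob 2.06, Apoa1 1.95 and Rbp4 1.44, adjusted p = 0.00348, 0.00567 and 0.0139), with none called against WT and the same counts without the doubted libraries. For the embryonic globins, Kdr, Nrp1, Cdh5, Igf2, Dlk1, Ttr and Afp neither difference of changes passed the test on 12 arrays, with values between -1.18 and 1.17. Without the 2 doubted libraries the difference of Dlk1 from WT was 1.46, in a fit that leaves 1 ESC WT array.

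**Figure D5:**
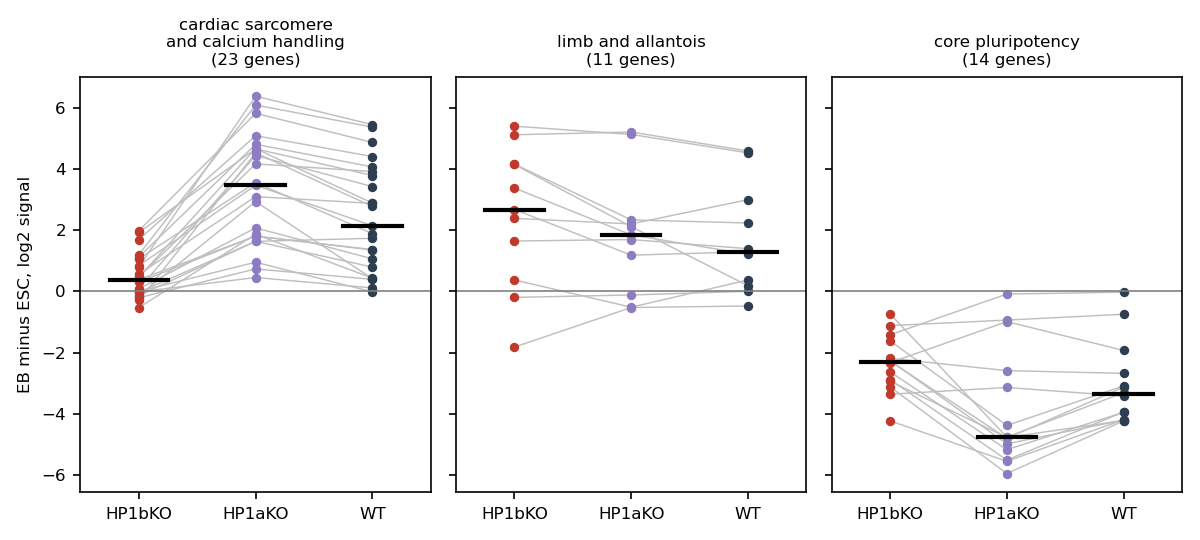
Log2 change from ESC to EB in HP1bKO, HP1aKO and WT, from the fit on 12 arrays, for the tested genes of 3 lists. Points are genes, grey lines join a gene across genotypes and black bars are medians. The cardiac sarcomere list lies at 0.38 in HP1bKO, 3.46 in HP1aKO and 2.14 in WT, and the core pluripotency list at -2.30, -4.77 and -3.36.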

How the data were processed

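RNA was hybridised to 12 arrays, 1 sample each, of which the 4 labelled HP1bKO carry the comparison described above. The authors deposited log2 signals, made by robust multi-array averaging (RMA) in Affymetrix Expression Console, so that background correction, quantile normalization and summarization preceded deposition. No source used here gives a version. Features carry annotation of a Mouse Gene 1.0 ST array, while the methods name an exon array. No build is named, and positions come from RefSeq sequence tables (GRCm38.p6) alone.

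Of 35556 features, 21789 carry 1 gene symbol, 1621 several and 12146 none. The brightest feature of each symbol was kept (19938 genes). A signal over 45 (log2 5.49) was required on 1 or more of the 4 arrays (10379 genes) or of the 12 (10880 genes). Scanner files and detection flags were not used here, so the floor stands for background.

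EB HP1bKO was tested against ESC HP1bKO with limma 3.58.1 in R 4.3.3 on the 4 arrays alone (2 residual degrees of freedom, 5.95 in all after moderation). Differences of changes between genotypes were fitted on 12 arrays with a mean for each of 6 groups (9.31 degrees of freedom after moderation). Tests were two-sided, with Benjamini-Hochberg adjustment over all genes tested and a threshold of 0.05. The fits were tested on simulated data. For HP1bKO minus WT, 30 of 130 calls were false in the fit on 10 arrays, against 7 of 108 in that on 12. Counts on 10 arrays therefore serve only to show whether calls remain. The fit on 10 arrays for HP1bKO minus HP1aKO was not simulated.

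Named genes are the 15 largest called rises and falls with groups that do not overlap and a name that is not a locus number, the 5 largest each way for each difference of changes, and members of 40 lists (568 genes, 524 on the array, 375 tested). The members, lists and rules were chosen with earlier results of these data known. Replicate numbers are shared between groups, but with 2 pairs and a correlation of replicate differences of 0.119 between EB and ESC HP1bKO they were not taken as pairs. Alternatives were the floor, scaling, choice of feature, moderation, the arrays in the fit, fold rules, a replicate block and leaving out each array.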

Additional observations from a re-analysis of the deposited data

Results flagged for a closer look

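The results below were singled out because the change from ESC to EB differed between genotypes by a test of the difference itself (limma on 12 arrays, Benjamini-Hochberg adjusted). Against WT 141 genes differed and against HP1aKO 215. The largest positive differences of HP1bKO minus WT were those of Tbx4 (3.96), Angptl7 (3.67), Pcolce (3.27), S1pr3 (3.15) and Aldh1a2 (3.10), all called under each of 15 other settings. The largest negative ones were those of Actc1 (-4.65), Car4 (-4.64), Cfc1 (-4.42), Myl7 (-4.17) and Smyd1 (-3.44). Actc1 was called in 8 of the 15 settings (adjusted p up to 0.159) and Car4 in 11 (up to 0.0767), and the other 3 in all.

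For HP1bKO minus HP1aKO the largest positive differences were those of Dppa5a (4.35), Dppa2 (4.02), Lncenc1 (3.52), Fbxo15 (3.15) and Zfp42 (2.83), of which Dppa2 was called in 14, Lncenc1 in 9 and Zfp42 in 10 of 15 settings. The largest negative ones were those of Actc1 (-5.57), Myl7 (-4.88), Myh6 (-4.82), Car4 (-4.49) and Myh7 (-4.34), with Actc1 and Car4 called in 12 settings each and the others in all 15. Groups of 2 arrays are too small to look for single arrays that stand apart.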

How the results depend on the processing

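For EB HP1bKO against ESC HP1bKO the count of 4148 genes became 2475 with a rule of 1.5-fold in every pair of arrays and 729 with 2.5-fold, and ranged from 797 to 5595 with 1 array left out (797 without EB HP1bKO replicate 1 and 946 without replicate 2, with fewer arrays by construction). All other settings gave 3381 to 5634 genes. With each array centred on its median 2046 genes were higher and 2389 lower (46.1% higher, against 58.6%). A replicate block gave 4507 genes, and since the numbers did not pair the samples it was not used. The 30 genes named first kept their call under every setting, except Mir302c and Zfp980 (adjusted p = 0.0772 without EB HP1bKO replicate 2) with 1 array left out. Of 256 called list members 216 kept it under all other settings and 134 with each array left out. Without ESC HP1bKO replicate 1 the values of Axin2 (0.51), Cldn3 (0.49) and Tagln (0.50), negative and not called with all arrays, turned positive and were called, against -0.63, -0.96 and -0.69 without ESC HP1bKO replicate 2.

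For the change in HP1bKO minus that in WT, 141 genes became 628 on 10 arrays, without the 2 ESC libraries whose Cbx5 went against their labels, 367 with a replicate block within each state, and 54 to 433 with 1 array left out (433 without ESC WT replicate 1, 219 without ESC WT replicate 2, 87 without ESC HP1bKO replicate 1, 54 and 55 without EB WT replicate 1 or 2, 63 and 60 without EB HP1bKO replicate 1 or 2). On 10 arrays Cdh2 (0.89) and Tex19.1 (-0.88) changed sign. For the change in HP1bKO minus that in HP1aKO, 215 genes became 588 on 10 arrays, 136 with a floor of 100, 445 with the replicate block, and 88 to 283 with 1 array left out (126 without ESC HP1bKO replicate 1, 97 and 88 without EB HP1aKO replicate 1 or 2, 113 and 114 without EB HP1bKO replicate 1 or 2), and on 10 arrays Cbx5 (-0.67) changed sign. On 10 arrays the lone ESC WT and ESC HP1aKO libraries are assumed to vary like the other groups. The cause of the other moves was not tested. Signals near the floor bound folds only from below.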
